A study of Rattus norvegicus with 44 samples.

Results

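The comparison described here is wild-type rat kidney at postnatal day 15 (PND15, 4 libraries) against postnatal day 5 (PND5, 3 libraries), which takes in 7 of the 44 libraries of a study on xanthine dehydrogenase (Xdh) and the maturation of the rat kidney. Of 32545 genes in the deposited table, 14206 reached an FPKM (fragments per kilobase of transcript, scaled to the mapped fragments of the library) of at least 1 in 3 or more of these 7 libraries, and those were tested. Messenger RNA was sequenced from the kidney cortex of male pups, which carry the wild-type genotype (WT) with no other allele or agent named. The study also holds WT, heterozygous (Het) and homozygous (Homo) Xdh animals at 4 ages, and the labels do not say what kind of Xdh allele this is. Whole litters were taken, and which animals were littermates is not stated, so the p-values measure only the spread between the animals in each fit.

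The rat is born with an unfinished kidney. Nephrons go on forming from a progenitor pool under the capsule during the first postnatal week, in exchange with the tips of the branching ureteric bud, and then the pool is used up. The tubules that remain lengthen, fill their brush border with carriers, and move from growth to transport and oxidative metabolism around the time of weaning.

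The 7 libraries held between 12751227 and 18142414 reads in genes (median 14488596). Markers of tubule segments were present in each of them: Lrp2 (proximal tubule) lay between 122 and 249.9 FPKM, Umod (thick ascending limb) between 375 and 1058, Slc12a3 (distal convoluted tubule) between 51.7 and 79.3, and Aqp2 (collecting duct) between 105 and 197. These markers do not measure how much medulla a library held, and transcripts of the inner medulla are given below. Across genes, libraries of 1 age correlated at 0.979 to 0.984 on the log2(FPKM + 1) scale. PND5 replicate 3 was the PND5 library farthest from the PND15 libraries, at 0.951 to 0.954 against 0.959 to 0.961 for the other 2. It is also the 1 PND5 wild-type library whose number in the sample titles lies below 100, as do all 4 PND15 numbers. The labels do not say what these numbers stand for, and they are called animal numbers below. Since the tissue is bulk cortex, a lower level can stand for fewer cells of a type or for less RNA per cell, and these cannot be told apart.

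In a limma fit on log2(FPKM + 1) over all 14 wild-type libraries, 4280 genes passed an adjusted p of 0.05 (30.1% of those tested). Of these, 2187 rose from PND5 to PND15 (15.4%) and 2093 fell (14.7%). Counts within gene lists, given below, were not tested against these shares. The changes were mostly small, with a median absolute log2 difference of 0.49 among the genes that passed, and 418 changed by at least 1 log2 unit, 250 upward and 168 downward. The PND5 and PND15 libraries did not overlap for 5965 genes (42% of those tested), with PND15 higher for 3052 and lower for 2913. When FPKM were rescaled to TPM, which moves the median gene by -0.07, 4343 genes passed and 35.3% of them rose, against 51.1% on the FPKM scale. Below, levels are FPKM as mean ± SD (n = 3 at PND5 and n = 4 at PND15), differences are PND15 minus PND5 on the log2(FPKM + 1) scale as value ± SE, which understates the change of low genes, and "rose" or "fell" is used for genes that passed.

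The gene that rose most was Hnmt, histamine N-methyltransferase, which inactivates histamine inside cells by methylation. It measured 1.25, 0.589 and 0.406 FPKM in the 3 PND5 libraries, on 32, 13 and 10 reads, and 25, 27, 23.1 and 19.2 FPKM in the 4 PND15 libraries, on 576, 605, 568 and 558 reads. The 2 ages were far apart, with no PND15 library below 19 FPKM and no PND5 library above 1.3. Mean Hnmt was 31.6-fold higher at PND15, a difference of 3.83 ± 0.15 with a limma adjusted p of 6.13e-10. Slc22a7, the organic anion transporter OAT2, went from 0.722, 0.552 and 0.431 FPKM to 7.65, 8.44, 7.97 and 5.64 FPKM. Each PND15 library stood above each PND5 library, and the mean was 13.1-fold higher (2.42 ± 0.13, limma adjusted p = 1.56e-08). Hnmt lies on chromosome 3 at 904765 to 937102 (minus strand) and Slc22a7 on chromosome 9 at 16924520 to 16931766 (plus strand) in the coordinates of the deposited table, for which no source used here gives the genome build.

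Egf, which encodes the epidermal growth factor precursor that the distal tubule makes in large amounts after birth, was 5.22, 2.94 and 2.93 FPKM at PND5 and 52.3, 49.9, 27.6 and 25.8 FPKM at PND15. The PND15 libraries fell into a higher and a lower pair, and the lower pair still exceeded all 3 PND5 libraries. The mean was 10.5-fold higher (3.05 ± 0.24, limma adjusted p = 2.45e-06). Xdh, the gene the study is about, which oxidises hypoxanthine and xanthine to uric acid, measured 4.36, 4.69 and 3.48 FPKM at PND5 and 17.8, 14.1, 14.2 and 16.9 FPKM at PND15. It was 3.77-fold higher in mean (1.69 ± 0.18, limma adjusted p = 1.24e-05), so the targeted gene itself rose in the wild type over these 10 days.

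The gene that fell most was Afp, alpha-fetoprotein, the main plasma protein of the fetal liver and yolk sac. Its level was 110.04, 116 and 198 FPKM at PND5 and 4.39, 6.23, 7.15 and 4.89 FPKM at PND15, a difference of -4.38 ± 0.18 (limma adjusted p = 3.37e-09). PND5 replicate 3 held the highest value, and the lowest PND5 library was far above the highest PND15 library. Other genes of the liver were low at both ages: Alb, albumin, was between 0.0963 and 0.358 FPKM in the PND5 libraries and between 0.0704 and 0.321 FPKM in the PND15 libraries. The other 21 genes of a liver list summed to 46.3 to 49.7 FPKM at PND5 and to 55.4 to 60.2 FPKM at PND15, so without Afp the list was higher at PND15. Of its 9 members tested, Afp, Serpina1, Fgb and F2 fell and Fga, Apoc3 and Tf rose.

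**Figure D1:**
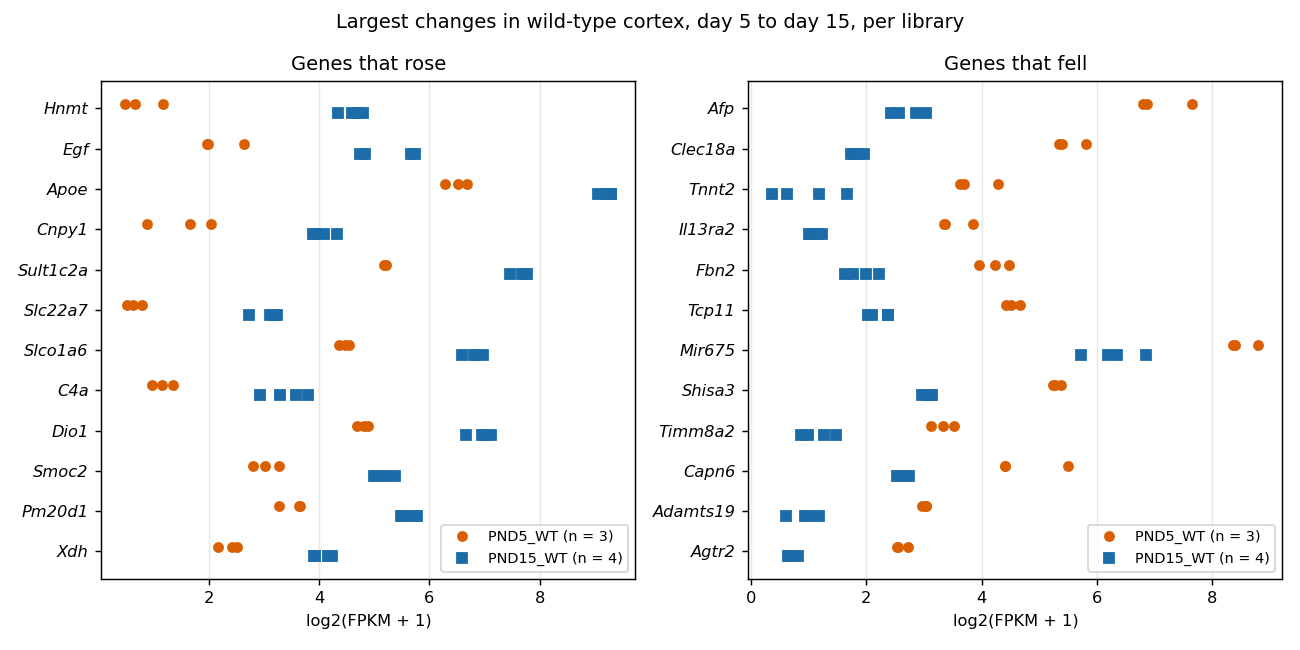
Level of each named gene in each of the 7 wild-type libraries, as log2(FPKM + 1) on the horizontal axis, for Xdh and genes among the 12 largest rises, and for the 12 largest falls. Each point is 1 library. The 12 largest were picked among genes whose PND5 and PND15 points do not overlap, so the gap between the points is no result of the figure.

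The other large rises included enzymes, a carrier and secreted proteins. Sult1c2a, a sulfotransferase, rose from 35.6 ± 0.422 to 202 ± 17.7 FPKM, Slco1a6, a carrier of the organic anion family, from 21 ± 1.43 to 111 ± 11.7, and Pm20d1, which joins fatty acids to amino acids, from 10.6 ± 1.63 to 48.5 ± 5.03. Dio1, the deiodinase that converts thyroxine to active triiodothyronine, rose from 26.9 ± 1.89 to 123 ± 15.7 FPKM. Apoe, the lipid-carrying apolipoprotein, started high and rose 6.64-fold, from 90.2, 102 and 76.5 FPKM to 590.4, 627, 628 and 533 FPKM. Smoc2, a secreted matrix protein, Cnpy1, and C4a, complement component 4, were also among the 12 largest, with differences of 2.12, 2.54 and 2.24. For C4a, the PND15 libraries ranged from 6.59 to 12.9 FPKM and all lay above the PND5 maximum of 1.55.

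The other large falls were of varied function. Clec18a, a C-type lectin, measured 40.9, 39.4 and 55.4 FPKM at PND5 and 2.46, 2.89, 2.51 and 2.34 FPKM at PND15 (-3.69 ± 0.15, limma adjusted p = 6.13e-10). Fbn2, the fibrillin of fetal microfibrils, fell from 17.8 ± 3.36 to 2.79 ± 0.702 FPKM. Agtr2, the type 2 angiotensin II receptor that dominates in fetal kidney, fell from 4.86, 4.75 and 5.57 FPKM to 0.555, 0.767, 0.654 and 0.573 FPKM (-1.89 ± 0.22, limma adjusted p = 2.42e-05). Tnnt2 (cardiac troponin T), Il13ra2 (an interleukin-13 decoy receptor), Capn6 (a calpain without protease activity), Adamts19 (a matrix protease), Shisa3, Tcp11 and Timm8a2 fell by between 2.09 and 2.91 on the log2 scale. In Capn6, PND5 replicate 3 stood at 44.4 FPKM against 20.2 and 20.1 in the other PND5 libraries, while the 4 PND15 libraries were between 4.79 and 5.71.

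Mir675, also among the largest falls, is the gene of a microRNA cut from the H19 transcript, an imprinted RNA of fetal tissues. Its row measured 336, 328 and 443 FPKM at PND5 and 51.6, 80.7, 115 and 72.3 FPKM at PND15, with no overlap (-2.24 ± 0.58, limma adjusted p = 0.0145). The limma adjusted p rose to 0.0556 without PND5 replicate 3. With a term in the fit for animal numbers below 100, the difference was -1.44 and the limma adjusted p was 0.137. Poly-A selected libraries show the transcript around the hairpin and do not measure the mature microRNAs, which are printed here to identify the products of this locus, from RefSeq (GRCr8, chromosome 1, minus strand, 207161800 to 207161821 and 207161766 to 207161786), with the seed, bases 2 to 8, in capitals.
rno-miR-675-5p: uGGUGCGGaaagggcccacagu
rno-miR-675-3p: uGUAUGCCcuaaccgcucagu
The 5p and 3p seeds are unlike each other, so the products of the hairpin belong to separate seed groups.

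Of 19 tested genes of the nephron progenitor and early nephron, 4 fell and 3 rose, with a median of -0.05 against 0.00 over all genes. These counts lie near the shares over all genes tested (14.7% fell and 15.4% rose), so nothing is read from them about the list. The 4 that fell included Gdnf, the ligand by which progenitor mesenchyme calls the ureteric bud, at 2.27, 3.49 and 3.51 FPKM at PND5 and 0.609, 0.208, 0 and 0 FPKM at PND15 (-1.78 ± 0.17, limma adjusted p = 3.79e-06). In 2 of the 4 PND15 libraries no Gdnf read was counted. Wt1, the transcription factor of progenitors and podocytes, fell from 34 ± 4.67 to 15.2 ± 2.07 FPKM, Uncx, a homeobox gene of the early kidney mesenchyme, from 7.11 ± 2.35 to 1.75 ± 0.195, and Cited1, a marker of the earliest progenitors, from 4.27 ± 0.44 to 2.18 ± 0.582. Six2, the factor that holds progenitors undifferentiated, was already low at PND5 with 0.432, 0.558 and 1.0 FPKM, was 0 in 3 of the 4 PND15 libraries, and did not reach the level for testing. Pax8 and Pax2, which later tubules keep, were 60.3 ± 2.79 at PND5 and 61.9 ± 11.5 at PND15 for Pax8 and 32.7 ± 1.9 at PND5 and 36.8 ± 8.4 at PND15 for Pax2, and neither passed. The 3 that rose were Ccnd1, Tmem100 and Spock2, all by less than 1 log2 unit, and none of them passed without PND5 replicate 1 or without PND5 replicate 2, and 1 passed without PND15 replicate 3 or without PND15 replicate 4.

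On the ureteric side, 5 of 10 tested genes of the tip and bud fell and 1 rose. Wnt11, a signal made at the tip, measured 33.7, 35.2 and 28.5 FPKM at PND5 and 11.4, 11, 10.3 and 11.4 FPKM at PND15 (-1.47 ± 0.20, limma adjusted p = 1.64e-04). Etv4 and Etv5, transcription factors switched on by GDNF-RET signalling, fell from 5.49 ± 2.97 to 1.52 ± 0.282 and from 11.7 ± 0.434 to 7.88 ± 0.883 FPKM. Gfra1, the GDNF co-receptor, and Emx2 also fell, while Slco4c1, an organic anion carrier on the list that is at home in proximal tubule, rose from 0.71 ± 0.145 to 2.36 ± 0.522 FPKM. The receptor Ret was near the limit of detection at both ages (0.247 ± 0.112 at PND5 and 0.168 ± 0.0544 at PND15) and was not tested.

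Genes of cell division went down together. Of 34 tested, 29 fell and none rose, with a median of -0.54. In 32 of them the PND15 libraries lay entirely below the PND5 libraries, as in 2913 of all 14206 genes tested. Plk1, a mitotic kinase, measured 12.7, 13.8 and 15.5 FPKM at PND5 and 7.05, 7.59, 7.07 and 7.54 FPKM at PND15 (-0.85 ± 0.08, limma adjusted p = 4.10e-06). Foxm1, the transcription factor of the G2 and M phases, fell from 10.9 ± 0.641 to 5.98 ± 0.426 FPKM, Ccne1, the cyclin of S-phase entry, from 7.8 ± 1.09 to 3.36 ± 0.302, and Aurka, the spindle-pole kinase, from 10.1 ± 0.377 to 5.69 ± 0.416. The levels at PND15 were still well above the detection limit, at 15.8 to 18.1 FPKM in 3 libraries and 12.4 in replicate 4 for Birc5 (survivin) and at 24.95 to 32.9 FPKM for Cdk1. When libraries of the other genotypes were added to the fit, 14 of the 34 passed.

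Birc5 and Cdk1 are the called cell-cycle genes of smallest p whose upstream sequence holds the motif TTTGAA, the cell cycle homology region read by the DREAM and MuvB complexes. Their 120 bases before the transcription start are shown for that motif, from RefSeq on GRCr8, with each match in capitals.
Birc5, chr10:103572026-103572145, plus strand: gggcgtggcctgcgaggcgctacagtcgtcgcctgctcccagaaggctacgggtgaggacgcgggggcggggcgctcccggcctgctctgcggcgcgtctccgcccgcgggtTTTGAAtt
Cdk1, chr20:19265173-19265292, plus strand: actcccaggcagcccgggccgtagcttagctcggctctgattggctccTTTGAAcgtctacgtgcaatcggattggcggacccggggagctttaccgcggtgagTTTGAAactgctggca
Within 250 bases before the start, on both strands, TTTGAA occurred in 8 of the 25 cell-cycle genes that have an entry in the sequence table and in 16.03% of all 27457 promoters in it. As 25 of 34 is under 80%, the share is a description of those 25 only.

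The network of imprinted and oncofetal growth genes fell in the same interval, 13 of 16 tested and none upward, with a median of -0.95. Igf2, the fetal insulin-like growth factor, measured 13.5, 14 and 19.2 FPKM at PND5 and 2.61, 3.71, 4.85 and 4.97 FPKM at PND15 (-1.73 ± 0.18, limma adjusted p = 1.15e-05). Igf2bp2, an RNA-binding protein of the fetal growth programme, fell from 16 ± 0.748 to 7.46 ± 0.434 FPKM, and Hmga2, a chromatin protein of proliferating embryonic cells, from 8.1 ± 1.3 to 2.24 ± 0.363. Igfbp2, which binds IGF in the circulation and matrix, fell from 168 ± 10.4 to 79 ± 11.7 FPKM. The imprinted cell-cycle inhibitor Cdkn1c did not pass, with 299 ± 41.8 at PND5 and 219.8 ± 31.9 at PND15 (limma adjusted p = 0.0913).

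**Figure D2:**
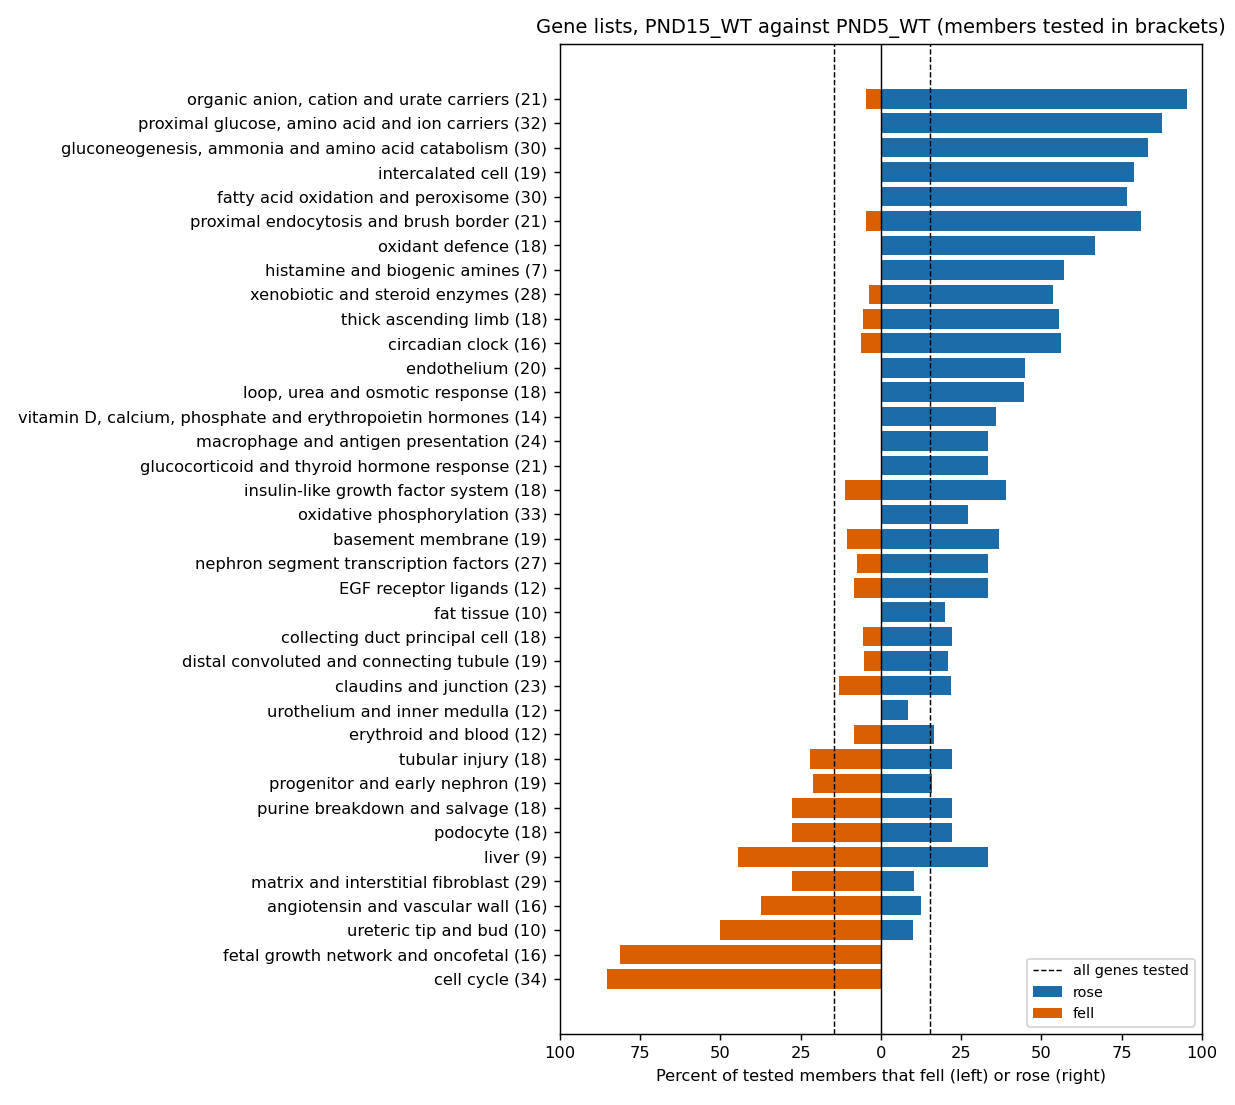
Percent of the tested members of each gene list that rose (right) and fell (left) from PND5 to PND15 in wild-type kidney, with dashed lines at the percent of all 14206 genes that rose (15.4) and fell (14.7). Proximal tubule and metabolism lists extend to the right, and the cell cycle and fetal growth lists extend to the left only.

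Carriers of the proximal tubule moved the other way. Of 32 carriers for glucose, amino acids, phosphate and other ions, 28 rose and none fell, with a median of 0.89. Slc34a1, the main brush-border phosphate carrier, measured 636, 652 and 597 FPKM at PND5 and 1668, 1589, 1376 and 1362 FPKM at PND15 (1.25 ± 0.11, limma adjusted p = 1.80e-06). Slc34a3, a second phosphate carrier, rose from 29.3 ± 0.368 to 67.1 ± 8.82 FPKM, Slc6a19, the neutral amino acid carrier B0AT1, from 19.97 ± 1.82 to 49.3 ± 2.75, and Slc15a2, the peptide carrier PEPT2, from 16.1 ± 0.652 to 39.2 ± 3.09. PND15 lay above PND5 without overlap for 3052 of all 14206 genes tested, and for these 28 carriers, which had been called already. The 4 others did not pass, among them the glucose carriers Slc5a1 (17.9 ± 0.684 at PND5 and 19.8 ± 2.05 at PND15) and Slc2a2 (36.8 ± 3.59 at PND5 and 39.4 ± 4.11 at PND15).

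The machinery of protein uptake and the brush border also rose, 17 of 21 tested, and 1 fell. Cubn (cubilin) and Lrp2 (megalin), the receptors that retrieve filtered protein and vitamin carriers, rose from 32.7 ± 1.36 to 74.4 ± 5.92 and from 123 ± 0.776 to 225 ± 18 FPKM. Mep1b, the beta subunit of the brush-border protease meprin, measured 17.7, 21.4 and 21.8 FPKM at PND5 and 50.03, 60.3, 46.7 and 42 FPKM at PND15, and Dpep1, a membrane dipeptidase, rose from 10.2 ± 1.53 to 26.4 ± 2.82 FPKM. Carriers of organic anions, organic cations and urate rose in 20 of 21 cases. Slc22a6, the organic anion transporter OAT1 that takes up drugs and metabolites from blood, rose from 126 ± 7.01 to 249 ± 34 FPKM, and Slc22a13, a related carrier of the apical membrane, from 4.24 ± 0.925 to 15.1 ± 1.49. The 1 carrier that fell was Slc17a4, at 11.3 ± 0.668 at PND5 and 7.09 ± 0.578 at PND15 (limma adjusted p = 0.0026).

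Of 27 transcription factors of the nephron segments, 9 rose, 2 fell (Sox11 and Mecom) and 16 did not pass. Hnf4a, a nuclear receptor of the proximal tubule, measured 56.7, 62.2 and 55.2 FPKM at PND5 and 110.4, 105, 104 and 107 FPKM at PND15 (0.87 ± 0.09, limma adjusted p = 8.96e-06), and Hnf4g rose from 7.76 ± 0.339 to 15.1 ± 0.868 FPKM. Letters that HNF4 factors can bind are shown for the called proximal genes of smallest p that hold them, as the 120 bases before the start in RefSeq (GRCr8), 5′ to 3′ on the strand of the gene. The capitals mark an HNF4 element (CAAAGTCCA on either strand) in Slc3a1, which encodes the heavy chain of the cystine carrier, and in Pdzk1, which encodes a brush-border scaffold.
Slc3a1, chr6:15394750-15394869, minus strand: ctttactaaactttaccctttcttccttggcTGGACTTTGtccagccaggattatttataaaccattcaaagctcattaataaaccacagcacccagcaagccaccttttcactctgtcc
Pdzk1, chr2:187064875-187064994, plus strand: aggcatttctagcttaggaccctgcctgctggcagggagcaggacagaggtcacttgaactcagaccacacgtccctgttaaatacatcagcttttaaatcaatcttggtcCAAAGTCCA
Slc3a1 measured 231, 247 and 260.1 FPKM at PND5 and 520.5, 559, 537 and 459 FPKM at PND15, and Pdzk1 205, 230.5 and 221 FPKM and 339.6, 342, 293 and 294 FPKM, and the 2 ages did not overlap for either. The motif was rare: within 250 bases CAAAGTCCA occurred in 0.33% of all promoters in the table. It was found in 1 of 27 proximal carrier genes with an entry and in 1 of 16 endocytosis and brush border genes. In the organic anion, cation and urate carrier list it was found in 0 of 18.

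Energy metabolism rose with the carriers. Fatty acid oxidation and peroxisome genes rose in 23 of 30 cases and none fell (median 0.53). Acsl1, which activates long-chain fatty acids, measured 36.9, 40.5 and 41.5 FPKM at PND5 and 82.2, 84.1, 78.9 and 83.2 FPKM at PND15. Slc27a2, a fatty acid carrier and activating enzyme, rose from 47.5 ± 7.11 to 103 ± 10.7 FPKM, Acadm, the medium-chain dehydrogenase, from 116 ± 7.42 to 184 ± 11.8, and Ppara, the nuclear receptor that drives this pathway, from 4.49 ± 0.943 to 9.57 ± 0.316. Cpt1a, Cpt2 and Ppargc1a did not pass, and Ppargc1a was 17.9 ± 0.121 at PND5 and 23.9 ± 0.333 at PND15.

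Genes of gluconeogenesis, ammonia and amino acid breakdown rose in 25 of 30 cases, with a median of 0.81 and none falling. Gk, glycerol kinase, measured 31.7, 33.8 and 35.2 FPKM at PND5 and 81.4, 78.9, 73.4 and 72.6 FPKM at PND15 (1.17 ± 0.07, limma adjusted p = 8.16e-08). Aadat, an aminotransferase of lysine and kynurenine breakdown, rose from 160.2 ± 6.81 to 402 ± 34.8 FPKM, Fah, the last enzyme of tyrosine breakdown, from 54 ± 2.75 to 118 ± 14.6, and Asl, the enzyme that releases arginine, from 65.2 ± 3.32 to 116 ± 9.15. Pck1, the control enzyme of gluconeogenesis, rose from 436 ± 86.3 to 906 ± 236 FPKM, with PND15 values of 961, 1209, 667 and 785, and did not pass when all 44 libraries were fitted (limma adjusted p = 0.201).

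In the respiratory chain and citric acid cycle, 9 of 33 genes tested rose and none fell, with a median of 0.18. Sdha, the catalytic subunit of succinate dehydrogenase, measured 161, 176 and 170.1 FPKM at PND5 and 240.2, 246, 239 and 223 FPKM at PND15 (0.49 ± 0.07, limma adjusted p = 1.68e-04). Ogdh rose from 26.7 ± 1.2 to 41.8 ± 4.6 FPKM and Sdhb from 207 ± 15.8 to 262 ± 24.1, both enzymes of the citric acid cycle. Cox4i1 of complex IV was 629 ± 54.5 at PND5 and 639 ± 36 at PND15 and did not pass. This count depended on single libraries: 3 rose without PND5 replicate 1, 5 without PND5 replicate 2 or without PND15 replicate 2, 15 with libraries weighted by quality and 2 with the term for animal numbers below 100.

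Enzymes that modify drugs and steroids rose in 15 of 28 cases, and 1, Cyp2j4, fell, a call that was lost in 6 of the 7 fits that left out 1 library (all but that without PND15 replicate 2). Fmo1, the flavin monooxygenase of the adult rodent kidney, measured 21.2, 25.3 and 22 FPKM at PND5 and 73.8, 72.2, 69.6 and 62.8 FPKM at PND15. Cyp2c23, an arachidonic acid epoxygenase, rose from 213 ± 23.6 to 449.5 ± 49.8 FPKM, Gsta2, a glutathione transferase, from 10.5 ± 2.49 to 23 ± 2.77, and Fmo5 from 4.63 ± 0.295 to 10.2 ± 1.11. Glutathione synthesis and oxidant defence rose in 12 of 18 cases with none falling. Gclc and Gclm, the subunits of the enzyme that limits glutathione synthesis, rose from 114 ± 3.38 to 332 ± 29.3 and from 140.3 ± 4.85 to 292 ± 19.1 FPKM, and Osgin1, a growth inhibitor induced by oxidants, from 6.52, 5.44 and 5.66 to 27.9, 28.4, 26.5 and 24.5 FPKM (2.02 ± 0.12, limma adjusted p = 7.71e-08). Gpx3, the glutathione peroxidase that the kidney secretes into plasma, went from 3473 ± 384 to 7123 ± 298 FPKM and had the highest mean of all nuclear genes at PND15, where Eef1a1, a translation factor, had been first at PND5.

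Around Hnmt, the other genes of histamine and biogenic amines were either modest or nearly silent. Of 7 tested, 4 rose, among them Hnmt, Ddc, which makes dopamine from DOPA in the proximal tubule, from 10.1 ± 1.28 to 22.8 ± 1.66 FPKM, and Slc6a4, the serotonin carrier, from 2.71 ± 0.356 to 3.76 ± 0.402. Slc6a4 did not pass in 4 of the 7 fits that left out 1 library. Hdc, which makes histamine, was 0.117 ± 0.0552 at PND5 and 0.103 ± 0.0824 at PND15 and was not tested. Around Xdh, 4 of 18 purine genes rose and 5 fell, beside 15.4% and 14.7% of all genes tested, and nothing is read from these counts about the list. Nt5e, the ectoenzyme that makes adenosine from AMP, measured 8.98, 9.74 and 8.12 FPKM at PND5 and 28, 29.2, 27 and 26.9 FPKM at PND15, and Aox1, a molybdenum oxidase related to Xdh, rose from 1.06 ± 0.205 to 2.54 ± 0.254 FPKM, the other rise being Gda. Impdh2, which limits guanine nucleotide synthesis in dividing cells, fell from 84.1 ± 7.28 to 51 ± 4.08 FPKM. The other 4 that fell were Ada, Gart, Adsl and Atic, the last 3 of which make purines anew, and 2 genes of the list fell without PND5 replicate 3 and 3 without PND15 replicate 4.

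In the thick ascending limb, 10 of 18 genes rose and 1, Irx1, fell. Umod, the urinary protein uromodulin, measured 416, 403 and 375 FPKM at PND5 and 996, 1058, 929.7 and 916 FPKM at PND15 (1.29 ± 0.19, limma adjusted p = 2.11e-04). Cldn16, the claudin of the magnesium pathway, rose from 21.3 ± 0.775 to 32 ± 3.89 FPKM, Tmem207 from 6.27 ± 0.491 to 10.9 ± 1.42, and Egf belongs to the same list. Without PND5 replicate 2 the number that rose was 6 and Irx1 did not pass, nor did it with the term for animal numbers, and Cldn16 did not pass with all 44 libraries (limma adjusted p = 0.0906). In the distal convoluted and connecting tubule, 4 of 19 rose and 1 fell, where 15.4% and 14.7% of all genes tested did so. Nothing is read from these counts about the segment. Kcnj16, a basolateral potassium channel subunit, rose from 103 ± 3.79 to 186 ± 19.5 FPKM, Trpm6, the magnesium channel, from 2.42 ± 0.247 to 4.81 ± 0.463, and Fxyd2, the gamma subunit of the sodium pump, from 2344 ± 99.2 to 3306 ± 363. Atp2b4, a plasma membrane calcium pump, fell from 23.5 ± 2.47 to 16.6 ± 2.29 FPKM, and the thiazide-sensitive carrier Slc12a3 did not pass (61.5 ± 7.33 at PND5 and 66.9 ± 12.7 at PND15).

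The 2 cell types of the collecting duct differed in how many of their genes passed, though that difference was not tested. Of 19 intercalated cell genes, 15 rose and none fell, with a median of 0.53. Foxi1, the transcription factor that specifies these cells, measured 10.7, 10.9 and 11.2 FPKM at PND5 and 22, 21.4, 20.9 and 25.3 FPKM at PND15 (0.97 ± 0.08, limma adjusted p = 1.39e-06). Atp6v0a4, a subunit of their proton pump, rose from 97.7 ± 3.46 to 171 ± 17.5 FPKM, Car2, carbonic anhydrase 2, from 124 ± 5.51 to 194 ± 11.4, and Slc4a9, a bicarbonate carrier, from 15.8 ± 2.65 to 29.1 ± 3.32. Of 18 principal cell genes, 4 rose and 1 fell, beside 15.4% and 14.7% of all genes tested, and nothing is read from these counts alone. Avpr2, the vasopressin receptor, rose from 12.6 ± 0.312 to 24.9 ± 3.55 FPKM, Slc14a2, the urea carrier of the inner medulla, from 5.35 ± 2.34 to 20.1 ± 4.57, and Npnt, a matrix ligand of integrins, from 113 ± 5.33 to 137 ± 4.0, the last being Kcnj1. A second gene entry named Slc14a2 measured 0.841 ± 0.346 FPKM at PND5 and 4.44 ± 4.62 at PND15. Its libraries overlapped and it did not pass (limma adjusted p = 0.328). The fall was Elf5, a transcription factor of principal cells, from 8.58 ± 1.84 to 4.4 ± 2.22 FPKM with libraries that overlapped, and it did not pass when PND5 replicate 1 or 2 or PND15 replicate 1 or 2 was left out. Aqp2, the water channel that vasopressin controls, was 107 ± 1.71 at PND5 and 148 ± 44.7 at PND15 and did not pass (limma adjusted p = 0.194). The number of principal cell genes that rose was 2 without PND5 replicate 3 and 9 with the 7 libraries alone.

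The PND15 libraries differed in transcripts of the inner medulla and pelvis. A list of 13 urothelium and inner medulla genes summed to 241 and 242 FPKM in replicates 1 and 2, to 382 and 330 FPKM in replicates 3 and 4, and to between 233 and 273 FPKM at PND5. In that list 1 of 12 genes tested rose, the Slc14a2 entry that passed above, beside 15.4% of all genes tested. Akr1b1, the aldose reductase that makes sorbitol in the medulla, ran along with it at 38.3, 56.2, 365 and 299.9 FPKM, and did not pass. The loop, urea and osmotic response list rose in 8 of 18 cases and included Aqp1, the water channel of proximal tubule and thin limb (196 ± 21.3 to 434 ± 17.7 FPKM), Cryab, a small heat shock protein (44.5 ± 5.6 to 103 ± 28.4), and Hspa1b, a stress chaperone (1.72 ± 0.362 to 6.14 ± 2.92). Cryab and Hspa1b were both higher in PND15 replicates 3 and 4 than in 1 and 2, and the part of the medullary share in these results was not tested. Egf ran the other way, with its higher pair in replicates 1 and 2.

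Of 18 podocyte genes, 4 rose and 5 fell, beside 15.4% and 14.7% of all genes tested, and nothing is read from these counts about the cell type. Col4a4 and Col4a5, chains of the adult glomerular basement membrane, rose from 44.4 ± 2.65 to 91.3 ± 8.11 and from 47.1 ± 1.15 to 64.1 ± 4.47 FPKM, and the other rises were Npnt and Clic5. The falls included Wt1, given above, Foxc2, a transcription factor of podocyte formation, from 20.4 ± 1.42 to 11.4 ± 2.03 FPKM, and Ptpro. Nphs1 (nephrin) did not pass, with 24.5 ± 0.909 at PND5 and 20.6 ± 3.5 at PND15. In the basement membrane list 7 of 19 rose, among them Nid2 (68.4 ± 5.44 to 91 ± 9.69 FPKM), and Lama1 and Lamc1 fell. Lama1, a laminin chain of embryonic membranes, went from 19.4, 17.8 and 23.3 FPKM to 12.3, 10.9, 9.9 and 12 FPKM (-0.78 ± 0.10, limma adjusted p = 4.99e-05). Without PND5 replicate 3, 2 podocyte genes and 4 basement membrane genes rose. In the basement membrane list, 1 gene fell without PND5 replicate 1, without PND5 replicate 3 or without PND15 replicate 3.

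Endothelial genes rose in 9 of 20 cases and none fell. Angpt2, an angiopoietin that loosens vessels during growth, measured 12.1, 11.4 and 11.1 FPKM at PND5 and 21.6, 25, 24.3 and 22.9 FPKM at PND15. Plvap, which spans the diaphragms of fenestrated capillaries, rose from 97 ± 16 to 145 ± 2.82 FPKM, Tek, the angiopoietin receptor, from 15.1 ± 1.87 to 21.4 ± 0.828, and Emcn, a capillary sialomucin, from 66.6 ± 0.314 to 85.1 ± 6.67. In the angiotensin and vascular wall list, 6 of 16 fell and 2 rose, the angiotensin receptors Agtr1a and Agtr1b. Acta2, smooth muscle actin, which is also expressed by fetal stroma, fell from 257, 242 and 223 FPKM to 84.1, 69.7, 81.7 and 84.8 FPKM (-1.58 ± 0.11, limma adjusted p = 2.95e-07). Des, desmin, fell from 20.7 ± 1.18 to 12.5 ± 0.458 FPKM, and Agtr2 was described above.

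Of 29 matrix and fibroblast genes, 8 fell and 3 rose. Fbn2 was the largest fall, Thbs2, an antiangiogenic matrix protein, fell from 22 ± 0.372 to 9.16 ± 0.989 FPKM, and Foxd1, the transcription factor of the stromal progenitor, from 19.3 ± 1.67 to 9.23 ± 1.56. Dcn, decorin, a proteoglycan that binds collagen fibrils, rose with Thbs1 and Sparc, from 123, 126 and 127 FPKM to 254, 255, 319.7 and 247 FPKM (1.09 ± 0.10, limma adjusted p = 2.91e-06). The fibrillar collagens Col1a1 (309 ± 24.5 at PND5 and 281 ± 49.5 at PND15) and Col3a1 (341 ± 10.5 at PND5 and 368 ± 44.5 at PND15) did not pass. The number that fell was 5 without PND5 replicate 2 and 4 when animal numbers below 100 were set apart by a term of their own.

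Hormone and growth factor genes rose in smaller numbers. In the glucocorticoid and thyroid list, 7 of 21 rose and none fell. Dio1 had the largest change, Thrb, a thyroid hormone receptor, rose from 8.8 ± 0.459 to 16 ± 0.466 FPKM, Nr3c1, the glucocorticoid receptor, from 22.3 ± 0.962 to 30.6 ± 1.24, and Hr, a thyroid hormone target, from 0.348 ± 0.152 to 1.54 ± 0.299. In the vitamin D and mineral hormone list, 5 of 14 rose, led by Kl (klotho, the co-receptor of FGF23), from 48.3, 48.5 and 57.5 FPKM to 108, 98.2, 84.3 and 86.9 FPKM. Rxra rose from 36.4 ± 2.12 to 46.9 ± 2.06 FPKM and Fgfr4 from 20.2 ± 1.44 to 27.2 ± 2.3. The number was 3 without PND5 replicate 3 or without PND15 replicate 2. In the insulin-like growth factor system, 7 of 18 rose, among them Insr, the insulin receptor (9.84 ± 0.568 to 14.4 ± 0.852 FPKM), and Igfbp7 (1305 ± 92.1 to 1833 ± 114), while Igf2 and Igfbp2 fell.

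Of 12 tested genes of the EGF receptor system, 4 rose and 1, the ligand Areg, fell. Areg did not pass without PND5 replicate 1 or 3, without PND15 replicate 4 or with the term for animal numbers. The other rises were the receptors Erbb3 (17.6 ± 1.82 to 31.3 ± 2.32 FPKM) and Egfr (2.74 ± 0.223 to 4.69 ± 0.778) and the receptor inhibitor Errfi1 (29.6 ± 3.42 to 67.1 ± 8.27). The circadian clock list rose in 9 of 16 cases, and Npas2 fell, which did not pass without PND5 replicate 1, without PND15 replicate 2, with all 44 libraries or with the term for animal numbers. Its output factors Dbp and Tef rose from 31.4 ± 2.06 to 58.5 ± 3.66 and from 24.7 ± 0.816 to 37.9 ± 1.38 FPKM, and Rora and Clock from 1.9 ± 0.238 to 4.71 ± 0.179 and from 7.23 ± 0.533 to 10.6 ± 0.659, while the core factor Arntl did not pass (6.69 ± 0.366 at PND5 and 6.85 ± 0.598 at PND15). The time of day at which pups were killed is not given, and its part in these values was not tested.

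Among junction genes, 5 of 23 rose and 3 fell, which were Cldn3, Cldn6 and Cldn11. Over all genes tested 15.4% rose and 14.7% fell, and nothing is read from the counts of this list. Cldn6, a claudin of embryonic epithelia, fell from 39.4, 37.1 and 34.9 FPKM to 14.9, 16.7, 14.5 and 17.2 FPKM (-1.18 ± 0.09, limma adjusted p = 4.78e-07). Cldn2, the pore-forming claudin of the proximal tubule, rose from 68.2 ± 3.98 to 116 ± 4.19 FPKM and Cdh16, kidney cadherin, from 184 ± 11.1 to 322 ± 11.2. Macrophage and antigen presentation genes rose in 8 of 24 cases and none fell. The 4 of smallest p belong to antigen presentation and lysozyme: Cd74 (59.8 ± 4.5 to 102 ± 13.7 FPKM), B2m (113 ± 5.87 to 179 ± 6.52), Lyz2 (24.2 ± 4.87 to 39.3 ± 5.36) and Tapbp (25.9 ± 2.36 to 34.8 ± 1.6). The macrophage receptor Csf1r (9.63 ± 0.581 at PND5 and 10.5 ± 1.08 at PND15) and C1qa (12.2 ± 2.12 at PND5 and 12 ± 1.88 at PND15) did not pass. The number that rose was 5 without PND15 replicate 1 and 4 when the other genotypes at these 2 ages were fitted along, and Lyz2 did not pass there (limma adjusted p = 0.0852).

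Of 18 genes known from tubular injury, 4 rose and 4 fell, beside 15.4% and 14.7% of all genes tested, and nothing is read from these counts about the list. Spp1, osteopontin, rose from 316 ± 32.1 to 663 ± 48.2 FPKM, Krt8 from 119 ± 7.56 to 178 ± 17.7 and Fga, a fibrinogen chain, from 2.27 ± 0.18 to 8.19 ± 0.925. The remaining rise was Gdf15. Fgb, the partner chain encoded beside Fga, fell from 5.96 ± 1.1 to 3.13 ± 0.229 FPKM, and the other falls were Vim, Timp1 and Cdkn1a. Havcr1 (kidney injury molecule 1) and Lcn2 did not pass, at 0.608 ± 0.263 at PND5 and 1.21 ± 0.397 at PND15 for Havcr1 and 5.8 ± 0.512 at PND5 and 6.85 ± 1.1 at PND15 for Lcn2. Of other tissues, the erythroid list had 2 rises in 12 genes, Tfrc (24.5 ± 1.46 to 50.1 ± 2.09 FPKM) and Slc4a1 (19 ± 2.41 to 30.3 ± 2.44), both also made by kidney epithelium, and 1 fall, Ahsp (4.91 ± 0.298 to 1.54 ± 0.438). The fat list had 2 rises in 10, Cidec (2.88 ± 0.678 to 5.88 ± 1.09 FPKM) and Pck1, which the kidney makes itself, the adrenal list 1 in 2, Fdx1 (38.1 ± 4.33 to 49 ± 4.14), the lymphocyte list 1 in 4, Ptprc (1.48 ± 0.201 to 2.11 ± 0.277), and the skeletal muscle list 1 fall in 3, Des. Fdx1 and Ptprc each did not pass in 5 of the 7 fits that left out 1 library. Over all genes tested 15.4% rose and 14.7% fell, and nothing is read from the counts of these small lists of other tissues.

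**Figure D3:**
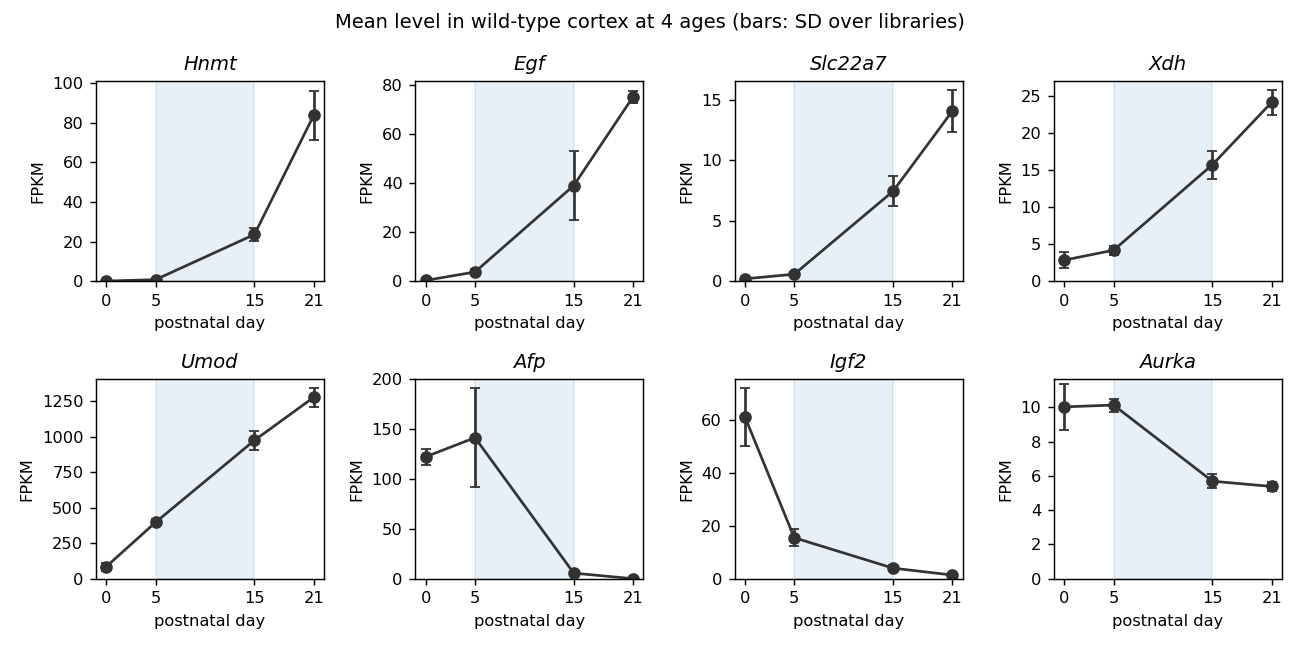
Wild-type mean FPKM ± SD (n = 3 to 4 libraries) on a linear axis from 0 in each panel, at days 0, 5, 15 and 21 for Hnmt, Egf, Slc22a7, Xdh, Umod, Afp, Igf2 and Aurka, with the interval from day 5 to day 15 shaded. Hnmt gained most of its level after day 15, and Afp passed the test as lower after day 5 and not before.

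The neighbouring intervals in wild-type kidney share libraries with this one (PND5 with the interval before, PND15 with the interval after), so their values stand side by side without a test between them. Hnmt was 0.0144 ± 0.0288 FPKM at PND0 and 83.8 ± 12.6 at PND21, so most of its absolute level was gained after PND15. Umod had risen from 85.8 ± 28.7 FPKM at PND0 to its PND5 level by 2.26 on the log2 scale, more than the 1.29 between PND5 and PND15. Afp was 122 ± 8.17 FPKM at PND0, close to PND5 (difference 0.16, limma adjusted p = 0.613), and 0.11 ± 0.0763 at PND21. Igf2 fell in each interval, from 61.3 ± 10.9 FPKM at PND0 to 1.42 ± 0.232 at PND21. Aurka, at 10.02 ± 1.33 FPKM at PND0 and 5.38 ± 0.248 at PND21, passed in this interval and in neither neighbour (0.02, limma adjusted p = 0.915, and -0.07, 0.673), and the difference between intervals was not tested. Gclc and Osgin1 reached 984 ± 298 and 86.6 ± 9.64 FPKM at PND21, and Foxi1 was 22.7 ± 1.56 FPKM there (0.02, limma adjusted p = 0.877).

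The same interval was measured in animals that the wild-type comparison did not use. In Het kidneys (4 libraries at each age), 5847 genes passed (41.2% of those tested), and 3580 of the 4280 wild-type calls passed there in the same direction, which is 83.6% of the wild-type calls and 61.2% of the Het calls, while 1 passed in the opposite direction. By limma with an interaction term, no gene passed for a change over the interval that differed between Het and WT (0 of 14206, 0%). At an unadjusted p under 0.05 there were 525 genes, and with voom on the recovered reads the number that passed was also 0. The interaction fit takes in the Homo libraries too. Its SE for Het minus WT was 0.45 for Hnmt and 0.40 for Plk1. In the wild-type fit the SE of the WT change was 0.15 and 0.08, so moderate differences between Het and WT could be missed. Hnmt went from 0.545 ± 0.284 to 34.4 ± 16.3 FPKM in Het, Egf from 5.1 ± 1.44 to 33.1 ± 9.43, Slc22a7 from 0.761 ± 0.197 to 7.52 ± 1.9, and Afp from 142 ± 10.3 to 3.53 ± 2.7. Xdh itself was lower in Het at both ages, at 2.93 ± 0.765 and 10.9 ± 1.78 FPKM. On the TPM scale, which moves the median Het gene by -0.13, 28.4% of the Het calls rose against 52.0% on the FPKM scale.

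In Homo kidneys, where Xdh was 0.667 ± 0.344 FPKM at PND5 and 5.58 ± 2.2 at PND15, 3720 of the 4280 wild-type calls had the same direction. The change differed between Homo and WT for 932 genes (6.56% of those tested), of which 495 were wild-type calls. Among these, 292 wild-type rises were smaller in Homo and 138 wild-type falls were smaller in Homo. These genes were picked for passing in WT, and the same WT libraries enter the Homo minus WT difference. That choice favours a smaller change in Homo, so nothing is read from these counts. The number of genes whose change differed between Homo and WT depended on single libraries, from 330 without PND5_WT replicate 1 to 1762 without PND15_Homo replicate 4. On the TPM scale, 76.7% of the genes that differed were higher in Homo, against 59.8% on the FPKM scale.

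**Figure D4:**
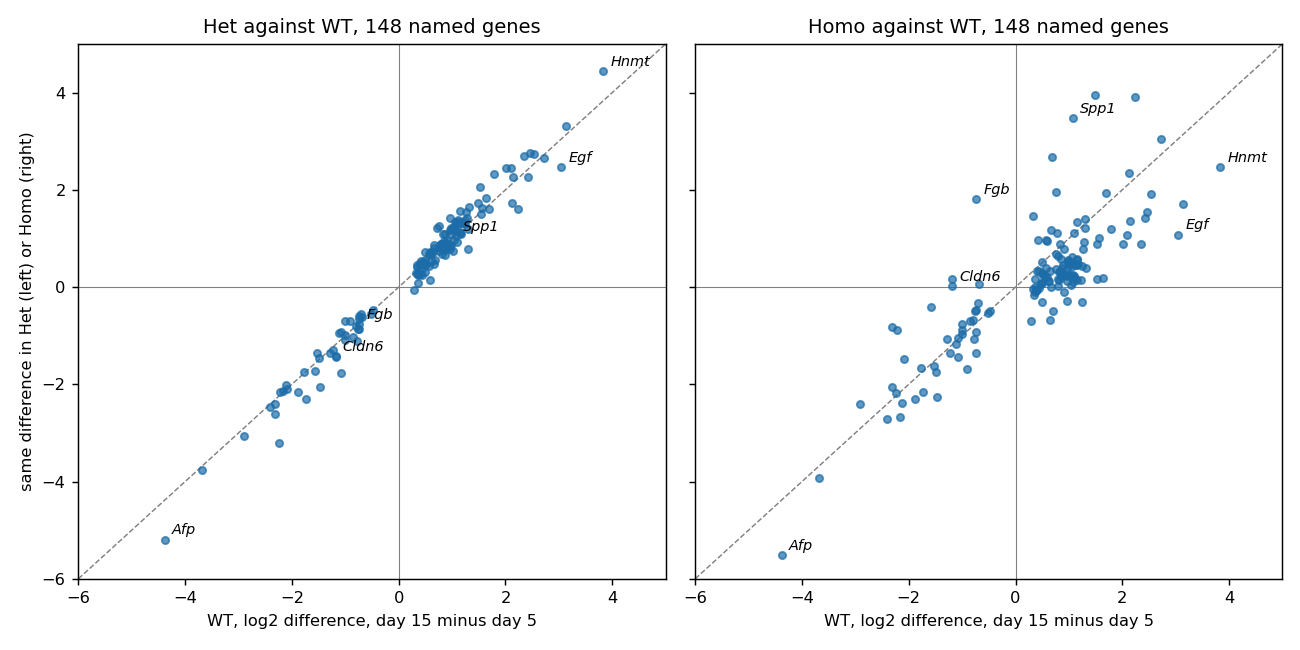
Log2 difference between PND15 and PND5 in WT (horizontal axis) against that in Het (left panel) and in Homo (right panel) for the 148 named genes, with the diagonal as the line of equal change. Het points run along the diagonal, and in Homo Egf lies below it while Spp1, Fgb and Cldn6 lie above it.

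Of the 32 proximal carriers, the change was lower in Homo for 10 and higher for none, with a median Homo minus WT of -0.53. Among all 14206 genes it was lower for 375 and higher for 557. As 28 of the 32 rose in WT and the same WT libraries enter the difference, a smaller change in Homo is favoured. Nothing is read from these counts. The share was larger in the gluconeogenesis, ammonia and amino acid list, with 16 of 30 lower and none higher. Slc34a1 was among the 10 proximal carriers, and its level went from 638 ± 96.7 to 876 ± 243 FPKM in Homo and from 646 ± 63.7 to 1588 ± 99.8 in Het. The Homo change was 0.43 against 1.25 in WT, a difference of -0.82 ± 0.22 (limma adjusted p = 0.0291). Egf went from 5.59 ± 1.45 to 13.5 ± 5.97 FPKM in Homo, and the change was smaller by -1.97 ± 0.44 (limma adjusted p = 0.0131). Cldn6, which fell in WT and Het, was 35.9 ± 2.18 and 37.6 ± 11.5 FPKM in Homo (1.20 ± 0.23, limma adjusted p = 0.00434). Spp1, by contrast, reached 3837 ± 1515 FPKM in Homo from 326 ± 37.6 (2.41 ± 0.27, limma adjusted p = 5.90e-05). For Hnmt, the Homo level reached 7.81 ± 4.75 FPKM and the difference in change of -1.37 ± 0.45 did not pass (limma adjusted p = 0.0752), nor did those for Slc22a7 (-0.99 ± 0.30, 0.0503), Afp (-1.13 ± 0.48, 0.18) and Xdh (0.24 ± 0.30, 0.725).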

How the data were processed

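Messenger RNA of 44 rat kidney samples was sequenced on Illumina instruments after poly-A selection, per the labels' protocols, in which both a directional and a non-directional preparation are described. The authors deposited 1 table of FPKM values, and the submitters' processing notes name, without roles, featureCounts 1.5.0-p3, StringTie 1.3.3b, HISAT2 2.0.5 and fastp. The build of the genome was not given in the sources used here. Each deposited FPKM value was a whole number of reads within 0.01 read (100% of values), and the recovered reads gave the depth and a check with voom.

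Genes with at least 1 FPKM in 3 of the 7 libraries were tested on log2(FPKM + 1) in limma (version 3.58.1 with statmod 1.5.0, under R 4.3.3), with trended and robust empirical Bayes, over the 14 wild-type libraries with 4 group means. Libraries of other genotypes were left out because an earlier account of these data gave Xdh levels against labels at PND0 and a wide spread in PND15_Homo. The p-values were Benjamini-Hochberg adjusted over all 14206 genes and called at 0.05. Changes between genotypes were tested by an interaction term over the 23 PND5 and PND15 libraries. The wild-type fit was checked on simulated data.

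The members, gene lists and motifs were chosen with earlier results of these data known. Hnmt, Egf, Slc22a7, Afp and Xdh were always named, with the 12 largest differences per direction among called genes whose libraries did not overlap and whose higher mean was at least 5 FPKM, and up to 4 called members of each list by smallest p. List members that did not pass, members of counts of 5 or fewer, Birc5, Cdk1, Slc3a1 and Pdzk1 for their promoters, Gfra1 and Emx2, and genes of families in the closing section stand outside that rule, the called ones among them named after their values were seen. Some genes that the rule picks are not reported here. Promoters and microRNAs come from RefSeq tables on GRCr8, matched by symbol. Reads of paralogs, pseudogenes and antisense genes cannot be told apart here. Alternatives changed the pseudocount (0.1), the low-value filter (none, or a mean of 5 FPKM), the scaling (TPM, median ratios), the libraries fitted, library weights, a term that sets apart animal numbers below 100, the count model (voom), and left out each library. Counts of genes are limited by 3 and 4 libraries per group.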

Additional observations from a re-analysis of the deposited data

Results flagged for a closer look

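In 2 of 148 named genes, 1 of the 4 PND15 libraries stood apart from the other 3 by Dixon's criterion at 95%, where chance gives about 1 in 20. Dcn was 320 FPKM in PND15_WT replicate 3 (319.7) against 247 to 255 in the others, and Gclc was 289 FPKM in replicate 4 (288.8) against 341 to 352. Both remained clear of the PND5 libraries.

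The change from PND5 to PND15 differed between Homo and WT in 932 genes by an interaction term in limma, and in 42 of the 148 named genes, 14 of them higher in Homo and 28 lower. That is 28.4% of the named genes against 6.56% of all genes tested, but the named genes were picked largely because they passed in WT, which favours a smaller change in Homo, so the shares are not compared. Values below are the Homo change minus the WT change on the log2(FPKM + 1) scale, where a gene passed with limma adjusted p between 5.90e-05 and 0.0489, and no explanation was tested. Among named genes of the proximal tubule, those lower in Homo were Slco1a6 -1.47, Sult1c2a -0.92, Slc15a2 -1.08, Slc34a1 -0.82, Mep1b -1.55, Slc22a13 -1.45, Slc22a6 -0.85, Nt5e -0.65, Cyp2c23 -0.98 and Ddc -0.91. Others did not pass, among them Dpep1 0.10 (limma adjusted p = 0.889), Slc6a19 -0.48 (0.264), Cubn -0.57 (0.16), Lrp2 -0.64 (0.121) and Slc34a3 -0.61 (0.0938). Mep1b, a brush-border protease, was 23.1 ± 1.92 FPKM at PND5 and 21 ± 12.5 at PND15 in Homo.

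Named genes of metabolism and glutathione synthesis that were lower in Homo were Acadm at -0.66, Gk at -0.70, Aadat at -0.93, Fah at -0.88, Osgin1 at -1.13 and Gclc at -1.37. Those of the distal nephron and collecting duct were Egf at -1.97, Tmem207 at -1.20, Casr at -0.80, Foxi1 at -0.71, Atp6v0a4 at -0.78, Slc4a1 at -1.33 and Npnt at -0.99. Cdh16 at -0.67, Col4a4 at -0.80, Angpt2 at -1.24, Thrb at -0.62 and Tef at -0.47 complete the genes lower in Homo.

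Genes higher in Homo included WT falls that were smaller or absent there: Tcp11 1.49, Shisa3 1.35, Acta2 1.18, Des 0.74, Thbs2 1.36 and Cldn6 1.20. They also included, from the injury and immune lists and complement: Spp1 2.41, Fga 2.46, Fgb 2.55, C4a 1.67, Cd74 1.20, Lyz2 1.98, Tapbp 0.55 and Ptprc 1.14. Lyz2, lysozyme of macrophages and granulocytes, reached 182 ± 76.2 FPKM at PND15 in Homo against 42.3 ± 8.76 in Het.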

How the results depend on the processing

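The number of wild-type calls (4280) was between 3054 (without PND5_WT replicate 3) and 5692 (with library weights) over 18 alternatives, within 1.5 times throughout. It was 4201 with a pseudocount of 0.1, 4095 with no filter, 3427 with a mean of at least 5 FPKM, 4343 with TPM, 4283 with median ratios, 4213 with all 44 libraries, 4955 with the 7 libraries alone, 4287 with voom and 3222 with the term for animal numbers. Of 148 named genes, all kept their direction in the alternatives that tested them, and 130 kept the call in each. The 18 that lost it in 1 or more included Atp2b4, Casr, Cidec, Cldn16, Elf5, Fdx1, Fmo5, Lyz2, Mir675, Npnt, Pck1, Ptprc, Sdhb, Serpina1, Slc14a2, Slc4a1 and Slc6a4. Moves of list counts by over 1.5 times without 1 library are given beside most lists. In addition, 2 genes fell in the distal convoluted tubule list without PND15_WT replicate 4, 2 in the erythroid list and 2 in the principal cell list without PND15_WT replicate 3, and 2 lymphocyte genes rose without PND5_WT replicate 1. With TPM, 4 basement membrane, 2 principal cell, 2 podocyte, 6 thick ascending limb and 1 progenitor genes rose. The causes were not tested. The Het calls (5847) were between 5077 and 5744 when 1 library was left out, and the number of genes that passed for a difference between Het and WT was 0 throughout. The number that differed between Homo and WT (932) was 687 with all 44 libraries, 908 with TPM and 864 with a pseudocount of 0.1, and between 330 and 1762 when 1 library was left out. The lowest was without PND5_WT replicate 1 and the highest without PND15_Homo replicate 4, and it also moved by more than 1.5 times without PND5_WT replicate 2 (462), PND5_Homo replicate 2 (535) or 4 (510), PND15_WT replicate 1 (515) or 2 (502), and PND15_Homo replicate 1 (410) or 3 (375). No paired analysis was possible because the labels give the samples no replicate numbers. Genes under about 1 FPKM rest on few reads, as Hnmt at PND5 (10 to 32 reads) shows, and their folds are the least certain.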

Other observations

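Several families, chosen after their values were seen and found by the start of the symbol, moved mostly in 1 direction between PND5 and PND15. Of 86 ribosomal protein genes tested, 66 fell and none rose, with differences from -1.49 to 0.32 and a median of -0.53. Their FPKM summed to 50053 ± 6291 at PND5 (SD, n = 3) and 34088 ± 4304 at PND15 (SD, n = 4), which is 9.36% and 6.04% of all FPKM. In Het the median was -0.52, with 65 called down, and on the TPM scale 71 fell. Reads of ribosomal proteins can be shared with processed pseudogenes, so single members are uncertain. Histone genes fell in 10 of 21 cases, kinesins in 15 of 29 with 2 rising, and tubulins in 7 of 18 with 1 rising. Among the tubulins, Tubb2b, an isotype of developing neurons and epithelia, fell from 50.9 ± 7.83 to 15.5 ± 0.726 FPKM and Tubb5, the main isotype of dividing cells, from 455 ± 29.1 to 236 ± 6.14, while Tuba4a rose from 49.1 ± 2.0 to 67.9 ± 6.88. On the TPM scale 12 histone genes, 15 kinesins and 11 tubulins fell.

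The solute carriers as a whole rose in 111 of 272 cases and fell in 22, and on the TPM scale in 95 and 27. Slc16a14, an orphan member of the monocarboxylate family, rose from 5.31 ± 0.146 to 21.6 ± 4.76 FPKM. Slc7a5, the large neutral amino acid carrier of growing cells, fell from 6.65 ± 0.205 to 2.5 ± 0.338 FPKM and Slc15a1, the peptide carrier PEPT1, from 5.36 ± 1.27 to 2.29 ± 0.134, while its relative Slc15a2 rose. Subunits of the vacuolar proton pump rose in 13 of 20 cases and none fell (10 on the TPM scale). Hox genes fell in 8 of 20 cases, among them Hoxd11, a patterning gene of the kidney, from 24.5 ± 0.944 to 13.5 ± 0.776 FPKM, and 2 rose, which were 0 on the TPM scale. Genes of the rat major histocompatibility complex (RT1) rose in 11 of 20 cases and none fell, on both scales, with RT1-Da, a class II chain, from 10.9 ± 0.616 to 21.3 ± 2.7 FPKM. Near-identical RT1 copies can share reads.

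Some values went along with single libraries. Ndufa1, a subunit of complex I, was 32.6 FPKM in PND5 replicate 1 and between 0.695 and 2.74 FPKM in the other 6 libraries. Hprt1, the salvage enzyme for hypoxanthine, was 0.194, 3.27 and 0.505 FPKM at PND5 and 0.216, 14.5, 0.303 and 10.2 FPKM at PND15, with no order by age. Within PND15, Wnt9b, a signal of the collecting duct, was 11.6, 11.5, 27.8 and 20.4 FPKM and Sgk1, a kinase induced by aldosterone, 27.3, 23.9, 39 and 65.3 FPKM, both higher in replicates 3 and 4, as were the inner medulla genes given above.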
